A study of Caenorhabditis elegans with 3 samples.

Results

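Transcript levels were compared between 2 strains of Caenorhabditis elegans that carry different mutant alleles of ahr-1, ia03 and ju145. RNA came from whole L4 larvae, the last larval stage, and was sequenced as messenger RNA libraries on an Illumina platform. The ia03 allele was carried by strain ZG24, the ju145 allele by strain CZ2485, and N2 served as the wild type strain. Each strain gave 1 library, so no difference below has a replicate error, a test or a p-value of its own. Of 45343 features in the deposited tables, 14250 entered the comparison of the alleles. They had the status OK in both tables and reached FPKM 1 in ia03, ju145 or both, with a locus of at least 300 nt. FPKM divides a gene's fragments by its length and by the library's mapped total, so genes are compared per length. Of these genes, 13431 were annotated as protein-coding, 439 as pseudogenes and 380 as another class or none.

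AHR-1 is the worm ortholog of the aryl hydrocarbon receptor, a bHLH-PAS protein that binds DNA and regulates transcription together with AHA-1, the ortholog of ARNT, and is held by the chaperone HSP90. In C. elegans it is known for setting the fate of particular neurons, among them GABA neurons of the RME class, touch receptor neurons and the URX neurons that sense oxygen. Both alleles are known as loss-of-function alleles, so a comparison between them asks which transcripts differ between strains in which the same factor is impaired. In RNA from whole animals, fewer cells of a type and less RNA per cell cannot be told apart.

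The measure used throughout is the log2 ratio of FPKM + 1 in ia03 to FPKM + 1 in ju145, centred on its median over the 14250 genes and called the ratio below. Before centring the median was 0.16, so the typical gene had a slightly higher FPKM in ia03. Ratios to the wild type library were centred in the same way, where the medians had been -0.01 for ia03 and -0.18 for ju145. Both of those ratios share the 1 wild type library, so the wild type value is read as a further value beside the mutants and not as independent evidence. Totals of mapped fragments are not used here. Of 473 features above 0 and below FPKM 0.1 in both mutants, 73 had the commonest rounded quotient of FPKM in ia03 to ju145, 0.87. That quotient would correspond to 1.15 fragments in the ia03 library for each fragment in the ju145 library, and the other features had other quotients. All 24 marker genes of 8 tissues, from muscle and intestine to sperm, were above FPKM 1 in all 3 libraries, with values from 2.0 to 3301.

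The targeted gene itself was read first. The FPKM of ahr-1 was 0.664 in the wild type library, 0.699 with ia03 and 0.569 with ju145. Each value lay under the floor, the locus overlaps other expressed loci, and no lesion in part of the gene can be read from its total. The gene is therefore not among the 14250, and its level bears on neither label.

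Most genes had similar levels in the ia03 and ju145 libraries. The middle of the distribution was narrow, with quartiles at -0.20 and 0.18 and the 1st and 99th percentiles at -1.17 and 0.89. At least 2-fold higher in ia03 were 93 genes (0.653%), and 195 genes (1.37%) were at least 2-fold lower, so that 288 (2.02%) differed by that size in either direction. At 1.5-fold the counts were 484 higher (3.4%) and 742 lower (5.21%). The balance between directions depends on the centring. Without it 168 genes were higher and 147 lower, and with centring on genes of similar transcript length 138 were higher and 152 lower. The genes nearest to the limit were Y55B1BR.6 at 1.01 and acbp-6 at -1.002 inside it, and ND4 at 0.999854 and epic-2 at -0.998 outside it.

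**Figure D1:**
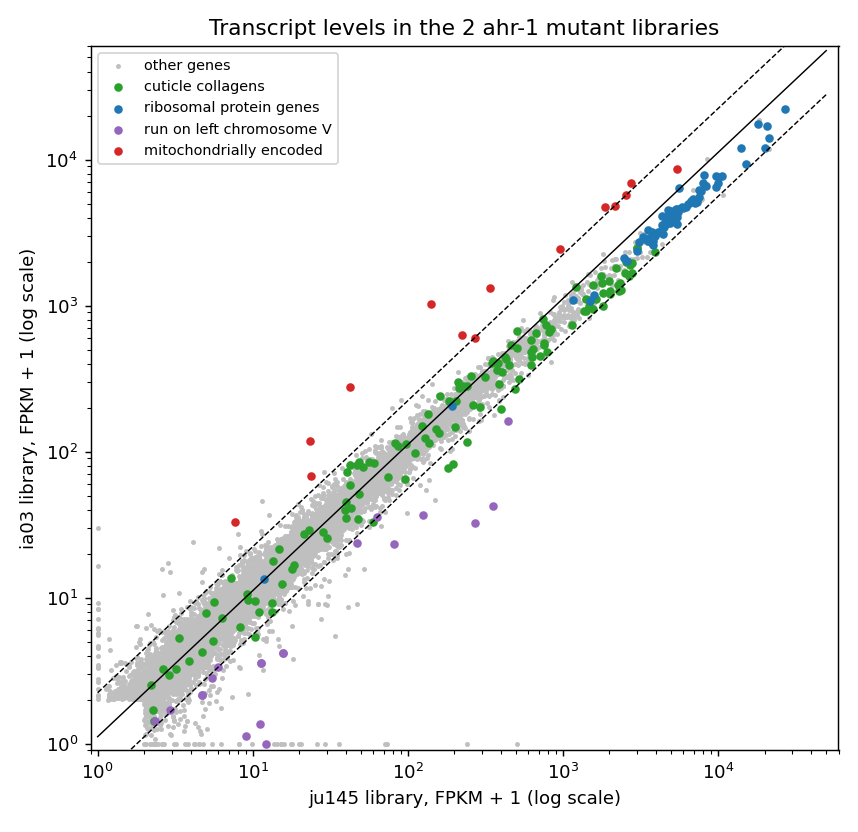
FPKM + 1 of the 14250 genes in the ia03 library (vertical, log scale) against the ju145 library (horizontal, log scale), with the median ratio as a solid line and the 2-fold limits as dashed lines. The 14 mitochondrially encoded genes lie above the line, the genes of a run on the left of chromosome V lie below it, and 69 of the 71 ribosomal protein genes lie below it.

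The wild type level showed which allele stood apart. Of the 195 genes lower in ia03, 95 were also at least 2-fold from wild type in ia03 but not in ju145, and 19 were so in ju145 but not in ia03. The 93 genes higher in ia03 were divided more evenly, with 29 apart from wild type in ia03 alone and 37 in ju145 alone. Both mutants lay at least 2-fold on the same side of wild type, one further out, for 24 of the lower and 9 of the higher genes. For 56 lower and 18 higher genes the wild type value lay within 2-fold of both mutants. Over all 14250 genes 4.66% were at least 2-fold from wild type in ia03, against 2.22% in ju145. The share of genes standing apart in ia03 is thus read against a larger background in that library. Among coding genes and pseudogenes the counts standing apart were 70 and 16 of the lower genes and 28 and 25 of the higher genes, in ia03 alone and in ju145 alone.

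**Figure D2:**
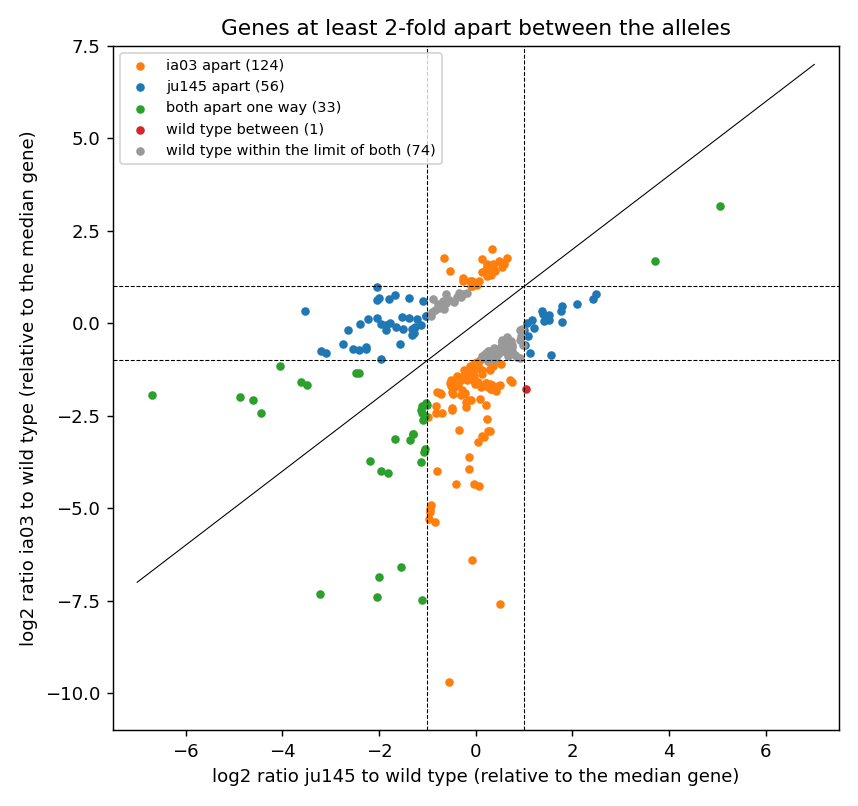
The 288 genes at least 2-fold apart between the alleles, by their log2 ratio ia03 to wild type (vertical) and ju145 to wild type (horizontal), both relative to the median gene, with the 2-fold limits dashed and the diagonal of equal ratios solid. The colours show that 124 stand apart from wild type in ia03 alone, 56 in ju145 alone and 33 in both the same way, and that 1 is below wild type in ia03 and above it in ju145.

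A lone gene had the mutants on opposite sides of wild type, each past this limit. F09B12.7, a protein-coding gene on chromosome X with 390 nt of exon, had an FPKM of 17.7 in the wild type library, 4.47 with ia03 and 33.1 with ju145, a ratio of -2.80. The authors' deposited q-value for it against wild type was 0.718 in ia03 and 0.778 in ju145. In the authors' deposited tables, which compare each mutant with wild type, the q-value was under 0.05 for 845 of the 14250 genes (5.93%) in ia03 and for 1337 (9.38%) in ju145. Of the 288 genes at least 2-fold apart between the alleles, 71 had such a q in the authors' deposited table for ia03, 32 in that for ju145 and 9 in both, and 194 had it in neither. No gene had such a q in both of the authors' deposited tables with opposite directions. The authors' q-values rest on 1 library a side as well.

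Protein-coding genes far from the median gene were found in both directions. Among genes above 0 in both mutants and at FPKM 5 or more in 1 of them, the lowest in ia03 after F09B12.7 and the genes of the chromosome V run was Y41C4A.21, with an FPKM of 66.2 in the wild type library, 8.07 with ia03 and 45.9 with ju145 (ratio -2.53). tag-272 had 5.93, 2.78 and 17.1 in the same order (-2.42), so here ju145 stood above both other libraries. In the other direction Y53G8AL.4 had 4.11 in the wild type library, 16.2 with ia03 and 1.85 with ju145 (2.43). Here ia03 was the high library and ju145 the low one. F25E5.1 had 7.21, 26.4 and 6.98 (1.62) and T05A12.4 had 5.46, 14 and 3.74 (1.5), with ia03 above both other libraries. For pud-3 the values were 46.4, 45 and 10.5 (1.84), so ju145 was the low library. The chemoreceptor genes srx-125 and srsx-25, members of families of G protein-coupled receptors used in smell and taste, had ratios of 1.69 and 1.96 at low levels. srx-125 had 3.26, 5.38 and 0.781, and srsx-25 had 0.949, 4.17 and 0.192.

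Mitochondrially encoded transcripts had the largest median difference of the 44 gene lists. This small genome encodes core subunits of the respiratory chain and its own ribosomal RNAs. All 14 genes had ratios above the median gene, 10 of them at least 2-fold against 0.653% of all genes, and the list median was 1.27. Their median was 0.17 in ia03 and -1.27 in ju145 relative to wild type, and all 14 lay below wild type in ju145 against 4 in ia03. They held 2.45% of the summed FPKM in ia03, 0.98% in ju145 and 1.69% in wild type.

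Within that genome the size of the difference was uneven. Among subunits of complex I, the NADH dehydrogenase, ND4L had an FPKM of 638 in the wild type library, 1026 with ia03 and 139.5 with ju145 (ratio 2.71). ND6, at 1309.6, 1309 and 337, had a ratio of 1.80, and ND5 and ND1 had ratios of 1.35 and 1.19. ND3, at 1163, 275 and 41.5 (2.54), differed from the others in lying far below wild type in ia03 too, with a log2 ratio of -2.07 there. ND4 came to 524, 600.1 and 269, just under 2-fold. The ribosomal RNAs MTCE.33 and MTCE.7 had ratios of 1.94 and 1.37, with MTCE.33 at 32.8, 31.9 and 6.68 and MTCE.7 at 75.1, 67.4 and 22.7. In both, wild type and ia03 lay close together and ju145 was low. Cytochrome b of complex III, ctb-1, had 5223, 6938 and 2741 (1.18). The subunits of complex IV, cytochrome c oxidase, differed least, with ratios of 1.00 for COX1, 0.98 for COX2 and 0.49 for COX3. COX3 had 6986 in the wild type library, 8549 with ia03 and 5475 with ju145, and its ratio to wild type in ju145 was -0.17. ND4L and ND6, ATP6 and ND1, and ND3 and ND5 share a locus in the files as pairs, so their split of reads is uncertain. The 8 genes that share no locus had ratios from 0.49 to 2.19, the highest being ND2.

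The nuclear genes of the respiratory chain had ratios near those of other genes at their level. Of 44 measured, 36 lay below the median gene, with a median of -0.21, and none differed by 2-fold. Their median FPKM over the mutants was 248, and all genes from FPKM 200 to 1000 had a median ratio of -0.24. cox-6C, a small subunit of complex IV, had 1610.0 in the wild type library, 1744 with ia03 and 2478 with ju145 (-0.66). cox-7C had 2177, 2109 and 3010.2 (-0.67). For both genes ju145 stood above the other libraries. These subunits of complex IV thus had ratios opposite in sign to those of COX1, COX2 and COX3, with COX3 at 0.49 the nearest to the median gene.

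**Figure D3:**
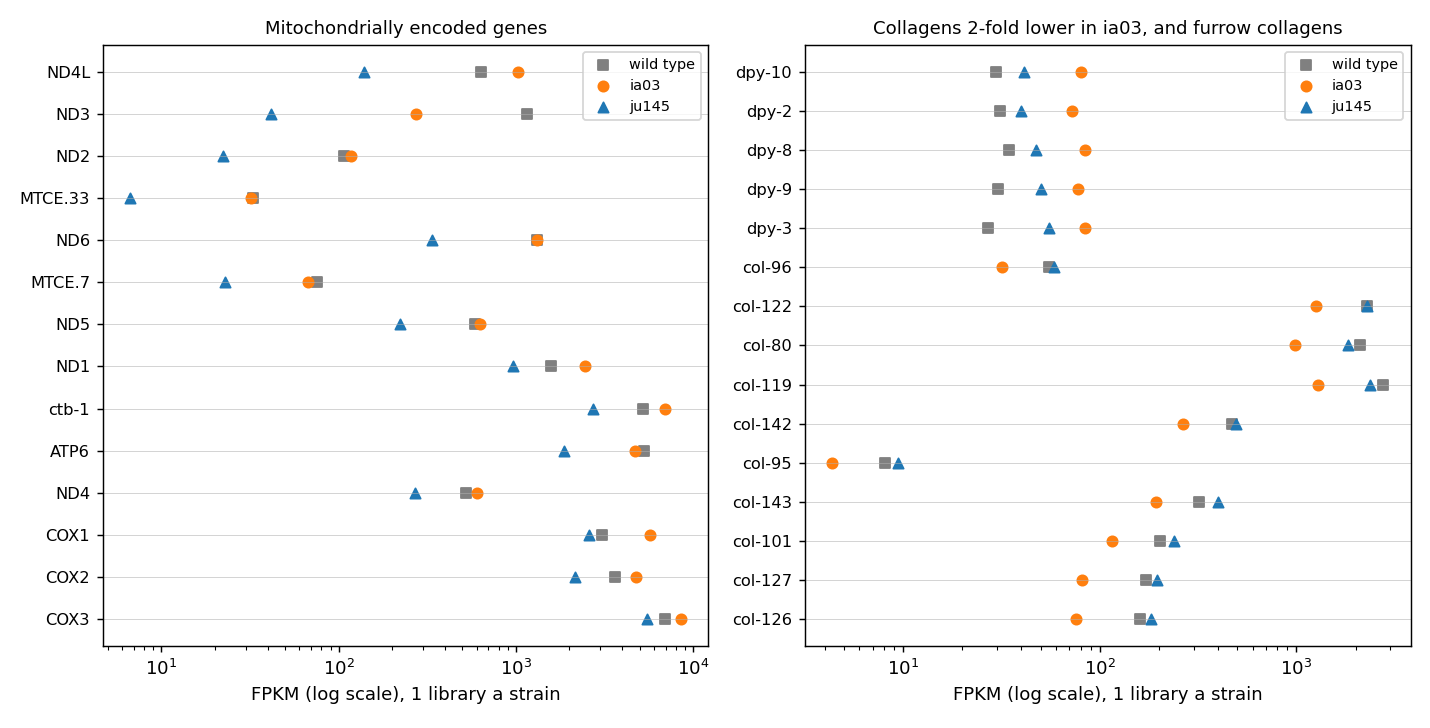
FPKM in the wild type, ia03 and ju145 libraries (log scale, 1 library a strain) of the 14 mitochondrially encoded genes on the left and, on the right, of 5 furrow collagens and the 10 cuticle collagens at least 2-fold lower in ia03. The ju145 symbol is lowest for every mitochondrial gene, while ia03 is highest for the furrow collagens and lowest for the 10 collagens.

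Cuticle collagens were split by kind. They are the main protein of the worm's exoskeleton, made anew by the skin before each moult. Of 134 measured, 96 lay below the median gene and 10 were at least 2-fold lower in ia03 (7.46% against 1.37% of all genes), with none at least 2-fold higher. The list median was -0.34. Against wild type their median was 0.12 in ia03 and 0.35 in ju145. The adjacent genes col-126 and col-127 on chromosome IV had 161 and 172 in the wild type library, 76.1 and 81.5 with ia03 and 182 and 194 with ju145. Both had a ratio of -1.40, with ia03 below both other libraries. col-101 had 201, 116 and 239.7 (-1.20) and col-143 had 321, 194 and 399.8 (-1.20). In both, ia03 was lowest and ju145 highest. The abundant col-119, at 2756, 1285 and 2374, had a ratio of -1.04 with ju145 near wild type.

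The collagens that form the annular furrows of the cuticle lay at the other end. The 5 measured, dpy-2, dpy-3, dpy-8, dpy-9 and dpy-10, all had ratios above the median gene, from 0.45 to 0.79, and none reached 2-fold. dpy-10 had an FPKM of 29.5 in the wild type library, 80.0 with ia03 and 41.2 with ju145, and dpy-2 had 31, 71.9 and 39.6. In each of the 5 wild type was lowest, ju145 intermediate and ia03 highest. Their medians relative to wild type were 1.35 in ia03 and 0.64 in ju145. All 5 are also counted in the list of 134. bli-1, a collagen of struts in the adult cuticle, had 42.8, 79.8 and 46 (0.63).

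Genes of moulting and of the apical matrix, the extracellular layer that shapes each new cuticle, lay mostly on the same side as the furrow collagens, with a smaller median. Of 89 measured, 63 lay above the median gene, with a median of 0.18 and 10 at least 1.5-fold higher in ia03 (11.2% against 3.4% of all genes) and 2 lower (2.25% against 5.21%). The lipocalin-related gene lpr-5 had 28.2 in the wild type library, 69.8 with ia03 and 32.7 with ju145 (0.92). Its neighbour lpr-6 had 37.3, 99.2 and 51.7 (0.77). Both were highest in ia03. grd-3, a hedgehog-related gene, had 167, 127 and 200.5 (-0.81), so ia03 was lowest and ju145 highest. The 28 astacin metalloproteases measured had a median of -0.08, a value whose sign turns without centring, with 16 below the median gene and none at 1.5-fold. Of 27 patched-related genes, relatives of the hedgehog receptor with roles in the epidermis, 19 lay above the median gene (median 0.19), among them ptr-10 at 3.69, 9.11 and 4.70 (0.67). Genes of this kind are known to cycle with each moult, and the labels give the stage as L4 with no finer time.

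**Figure D4:**
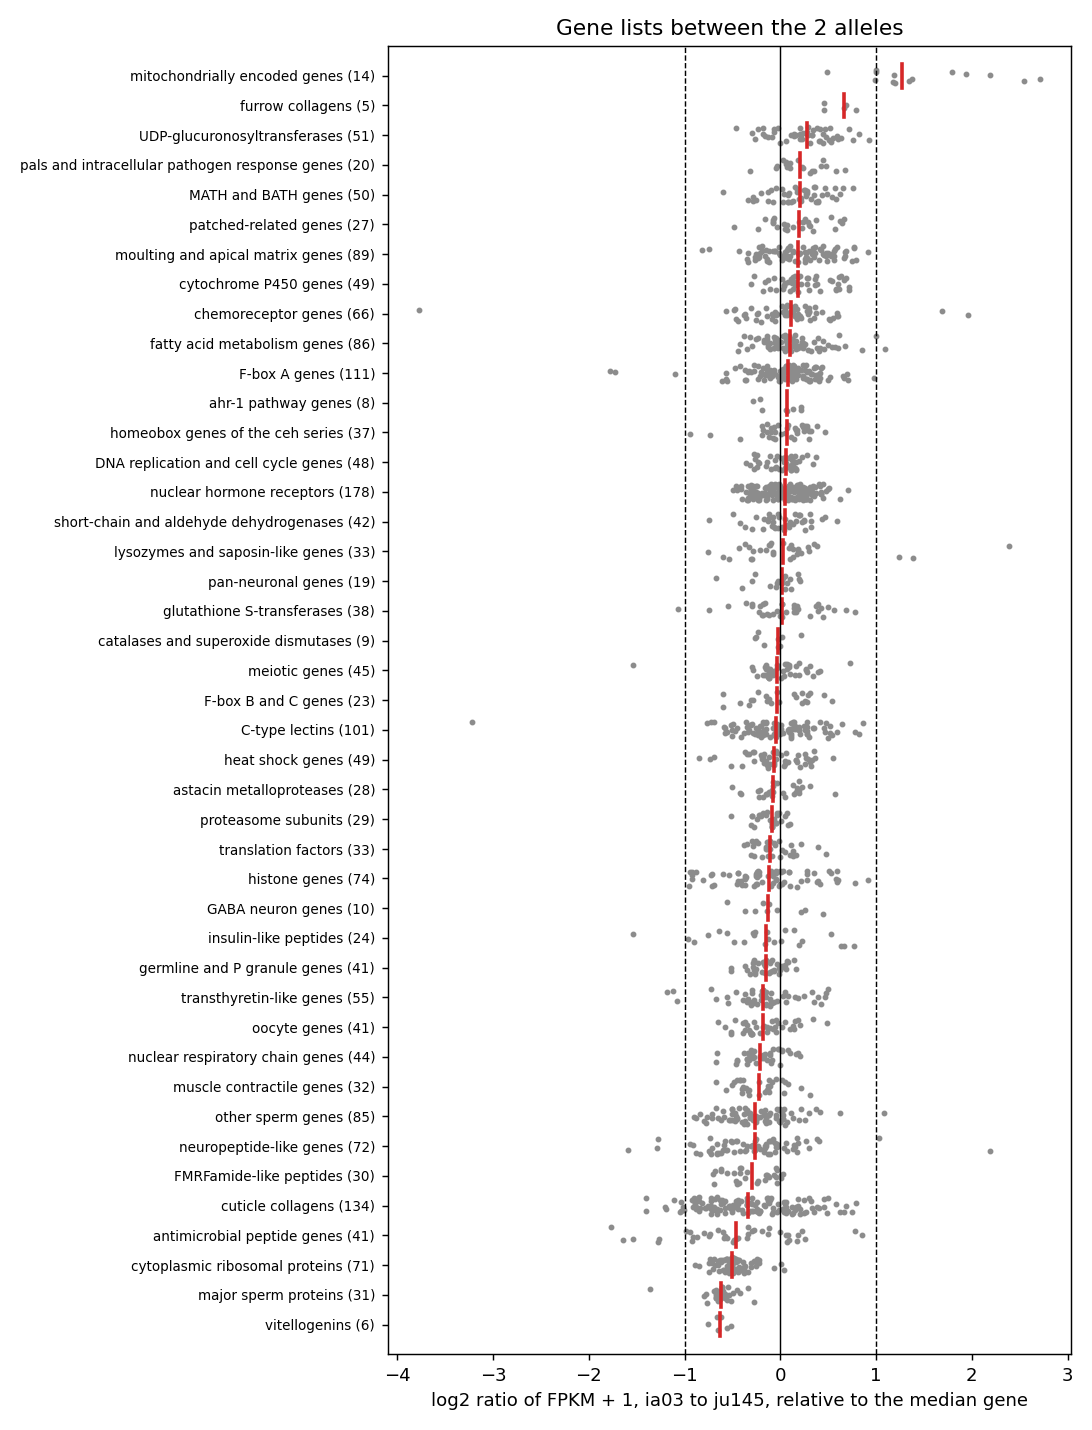
The ratio ia03 to ju145 (log2, relative to the median gene) of each measured gene in lists of gene families and functions, 1 grey point a gene, with the list median as a red bar, the 2-fold limits dashed and the number measured in brackets. Mitochondrially encoded genes and furrow collagens have the highest medians, at 1.27 and 0.66, and vitellogenins and major sperm proteins the lowest, at -0.63 and -0.62.

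Sperm and yolk transcripts were lower in ia03 than in ju145. Major sperm proteins build the cytoskeleton with which nematode sperm crawl. All 31 measured lay below the median gene, with a median of -0.62, and 1 of 31 was at least 2-fold lower (3.23% against 1.37% of all genes). That 1 was msp-42, annotated as a pseudogene, with 31.2 in the wild type library, 11 with ia03 and 26.6 with ju145 (-1.36). msp-76 had 1132, 666 and 1035 (-0.79). In both genes ju145 lay nearer to wild type than ia03 did. The medians relative to wild type were -0.75 in ia03 and -0.16 in ju145. As msp genes exist in near-identical copies that share reads, they are not separate measurements.

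Of 85 other sperm genes, 66 lay below the median gene (median -0.26), and relative to wild type the medians were -0.61 and -0.33. Relative to genes of the same length class the median between the alleles was -0.15. nspd-4, of a nematode-specific peptide family, had 531 in the wild type library, 199 with ia03 and 335 with ju145 (-0.90). spe-29, a gene needed for sperm activation, went the other way, with 6.66, 6.32 and 2.11 (1.08). All 6 vitellogenin genes, which encode yolk proteins made in the intestine, lay below the median gene, with a median of -0.63 and none at 2-fold. vit-2 had 1816, 1046 and 1579 (-0.75) and vit-5 had 1353, 632 and 869 (-0.62). Both stood lowest in ia03.

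Other germline lists differed less. The 41 oocyte genes had a median of -0.18, and gld-1, a translational repressor of the germline, had 311 in the wild type library, 223 with ia03 and 286 with ju145 (-0.51). The 45 meiotic genes had a median of -0.03. him-8, a zinc-finger protein that pairs X chromosomes in meiosis, was the 1 of them at least 2-fold lower. It had an FPKM of 209 in the wild type library, 14.8 with ia03 and 40.1 with ju145 (-1.53), so both mutants lay far below wild type and ia03 lower still. brc-1, the ortholog of BRCA1, had 11.8, 17 and 8.74 (0.73).

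Cytoplasmic ribosomal protein genes, the most abundant list, were shifted together. Of 71 measured, 69 lay below the median gene, with a median of -0.50 and none at 2-fold. By list median the shift lay in ju145, with medians relative to wild type of 0.53 there and 0.01 in ia03. rps-28 had 14171 in the wild type library, 14153 with ia03 and 21338 with ju145 (-0.75). rpl-43 had 13880.0, 12037 and 20081 (-0.89). In both, ju145 was the high library. The list held 27.1% of the FPKM summed over all features in ju145, 23.9% in ia03 and 19.9% in wild type. That sum was smaller in ia03 (1.52e+06) than in wild type (1.78e+06), while the list itself summed to 363542 and 354069. The share in ia03 is thus above wild type although the list median is not. Translation factors, with a median of -0.11 over 33 genes, and proteasome subunits, with -0.09 over 29, stayed nearer to the median gene, and the sign of both medians turns without centring.

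Transcript length and level moved with these ratios. Genes with at most 200 nt of exon in the reference had a median ratio of -0.60, those from 200 to 300 nt -0.34, those from 300 to 500 nt -0.23 and those from 1500 to 2000 nt 0.05. By level, genes above FPKM 1000 had a median of -0.46 over 220 genes, and those from 5 to 20 had 0.04. The lists of short genes were among the lowest. Relative to genes of the same length class the median of the ribosomal proteins was -0.34, that of the major sperm proteins -0.39, and that of the antimicrobial peptides -0.23. The cuticle collagens (-0.35), the vitellogenins (-0.67), the furrow collagens (0.61) and the mitochondrially encoded genes (1.29) moved little on that scale. The part of length and level in the differences between the lists was not tested.

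**Figure D5:**
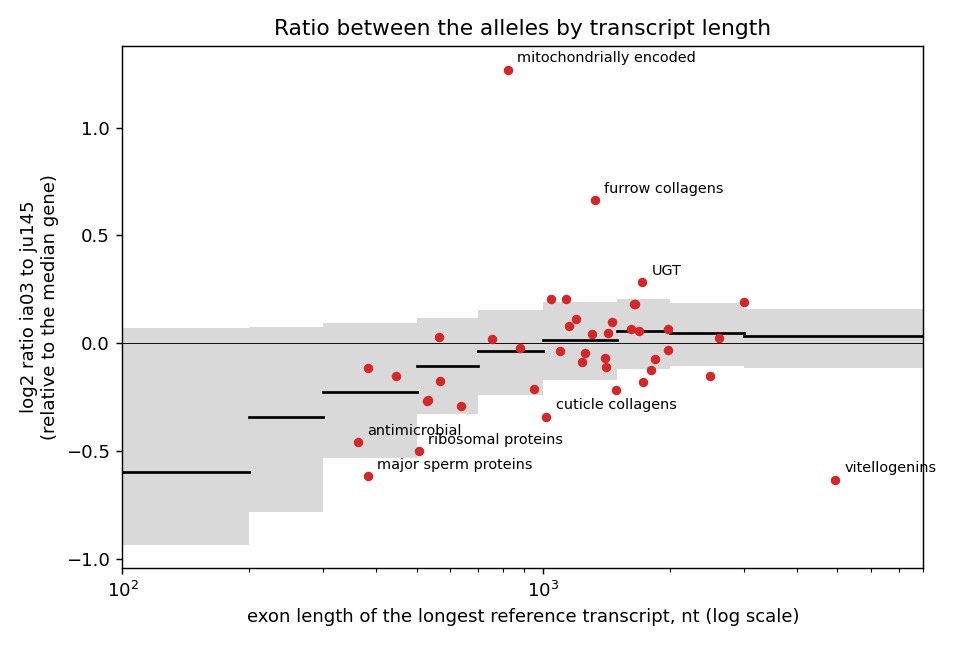
List medians of the ratio ia03 to ju145 (log2, relative to the median gene) as red points against the median exon length of the list (nt, log scale), over the median (black line) and quartiles (grey) of all genes in each length class. The medians of all genes are lower in the shorter classes, from -0.60 at up to 200 nt to 0.05 at 1500 to 2000 nt, and the named lists lie outside the quartiles or near their edge.

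Families of enzymes that modify foreign compounds include classical targets of the aryl hydrocarbon receptor in mammals, and of these the UDP-glucuronosyltransferases and cytochrome P450 genes lay mostly above the median gene. The UDP-glucuronosyltransferases, which attach sugars to small molecules, had 38 of 51 genes above the median gene, with a median of 0.28. At 1.5-fold 7 were higher (13.7% against 3.4% of all genes) and none lower, and none reached 2-fold. ugt-57 had an FPKM of 1.72 in the wild type library, 5.77 with ia03 and 2.20 with ju145 (0.92), and ugt-16 had 8.99, 17.2 and 8.65 (0.76). In both, ia03 was above the other libraries. Relative to wild type the list medians were 0.07 in ia03 and -0.21 in ju145. Such a median was not particular to these enzymes. Among genes grouped by the letters of their symbol, oac had a median ratio of 0.33 over 18 genes and cest 0.30 over 28.

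Of 49 cytochrome P450 genes, which oxidise lipids and foreign compounds, 41 lay above the median gene, with a median of 0.18. At 1.5-fold 9 were higher (18.4% against 3.4%) and none lower. The list medians relative to wild type were 0.21 in ia03 and -0.09 in ju145. Relative to genes of the same length class the median between the alleles was 0.13. cyp-13B1 had 3.52, 11.2 and 5.65 (0.72), and cyp-35C1 had 25.5, 31.9 and 17.6 (0.67). The first was lowest in wild type and the second in ju145. Of 38 glutathione S-transferases 21 lay above the median gene (median 0.02), and of 42 short-chain and aldehyde dehydrogenases 23 did (median 0.04). gst-30 was at least 2-fold lower, at 3.11, 1.04 and 2.84 (-1.07), and gstk-1 had 32.1, 49.5 and 25.4 (0.78). Of 86 fatty acid metabolism genes, 57 lay above the median gene (median 0.10). acs-7, an acyl-CoA synthetase, had 11.3, 26.3 and 10.5 (1.10), with ju145 close to wild type.

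Defence genes differed by family. The antimicrobial peptide list, short secreted peptides of which many are made in the skin, had 31 of 41 genes below the median gene, a median of -0.46 and 5 at least 2-fold lower (12.2% against 1.37%). These are short genes, with a median exon length of 362 nt, and relative to their length class the median was -0.23. In the class from 300 to 500 nt, 55 of 1103 genes were 2-fold lower. Relative to wild type its medians had opposite signs, -0.17 in ia03 and 0.28 in ju145. The caenacin genes cnc-2 and cnc-4 had 8.45 and 22.7 in the wild type library, 4.22 and 12.3 with ia03 and 13.6 and 27.9 with ju145, with ratios of -1.64 and -1.28. The defensin-like genes abf-1 and abf-3 were listed at 0 in wild type, and had 0.555 and 0.439 in ia03 and 3.77 and 2.75 in ju145. These values lie near or below the floor, and abf-1 overlaps other expressed loci, yet both genes count among the 5. The lysozyme and saposin-like list had a median of 0.03 with 3 of 33 genes at least 2-fold higher in ia03 (9.09% against 0.653% of all genes), and the sign of that median turns under some settings, its range being -0.13 to 0.19. In these, lys-7 was high in ia03 (11.2 in wild type, 35.9 and 11.7), while spp-31 was low in ju145 (23.6, 23.1 and 3.13). The C-type lectins had a median of -0.04 over 101 genes, a value whose sign turns without centring. Of 20 genes of the pals family and the intracellular pathogen response, 17 lay above the median gene (median 0.21), among them pals-19 at 2.54, 5.69 and 2.75 (0.68).

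Neuropeptide genes were mostly lower in ia03 than in ju145, while general neuronal genes were level between them. Of 72 neuropeptide-like genes, 57 lay below the median gene (median -0.27), 3 at least 2-fold lower (4.17% against 1.37% of all genes) and 2 higher (2.78% against 0.653%). Some of these, such as the nlp genes induced by fungi, are also in the antimicrobial list. nlp-70 had 7.65 in the wild type library, 3.03 with ia03 and 9.92 with ju145 (-1.59), and nlp-56 had 14, 4.86 and 11.8 (-1.28). In both, ia03 was the low library. For nlp-46 ju145 was the low library, at 21.1, 13.9 and 1.92 (2.19), with both mutants below wild type. Of 30 FMRFamide-like peptide genes, 27 lay below the median gene (median -0.29), among them flp-15 at 49.7, 47.4 and 69.7 (-0.70), where ju145 was the high library. By list median it was ju145 that stood apart from wild type. The neuropeptide-like genes had medians relative to wild type of -0.05 in ia03 and 0.31 in ju145, and the FMRFamide-like genes -0.02 and 0.25. Both lists hold short genes, and relative to their length classes the medians between the alleles were -0.13 and -0.18. The 19 pan-neuronal genes, parts of the synaptic vesicle and neuropeptide machinery, had a median of 0.02. Of 24 insulin-like peptide genes, ins-12 had 22.4, 22.8 and 11.5 (0.77) and ins-24 had 4.06, 1.18 and 2.81 (-0.96). The 32 muscle contractile genes had a median of -0.22, with 26 below the median gene and none at 2-fold. Their median FPKM over the mutants was 197. All genes from FPKM 100 to 200 had a median ratio of -0.10, and those from 200 to 1000 had -0.24.

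Measured genes of the ahr-1 pathway and of GABA neurons lay within 1.5-fold between the alleles. Of 8 pathway genes measured, none reached 1.5-fold, and their ratios ran from -0.28 to 0.21. aha-1, the partner, was at FPKM 9.51 in the wild type library, 11 with ia03 and 8.27 with ju145 (0.21). daf-21, which encodes HSP90, had 1324, 1220.5 and 1331 (-0.28). Of 11 GABA neuron genes 10 were measured, none of them at 1.5-fold. unc-30, a homeodomain factor of GABA motor neurons, had 0.937, 0.874 and 1.48 (-0.56), and unc-47, the vesicular GABA transporter, had 1.60, 2.03 and 0.992 (0.45). These values lie near the floor. Of 12 oxygen-sensing neuron genes 1 was measured, egl-13, a SOX factor, at 18.2, 18.3 and 16.5 (-0.02). Transcripts of a few neurons are a small part of whole-animal RNA, and the other 11 genes lay below the floor or lacked the status OK, so no difference in them was detectable here.

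The 111 F-box A genes, adaptor-like proteins of ubiquitin ligases, had a median of 0.08, with 3 at least 2-fold lower in ia03 (2.7% against 1.37% of all genes). Those 3 are the neighbours fbxa-191, fbxa-192 and fbxa-193 on chromosome V. fbxa-193, annotated as a pseudogene, had 5.58 in the wild type library, 0.211 with ia03 and 2.59 with ju145 (-1.72), and fbxa-191, also a pseudogene, had 4.12, 0.145 and 1.21 (-1.10). Both mutants lay below wild type in each, with ia03 lower. Of 50 MATH and BATH genes 39 lay above the median gene (median 0.21), and math-14 had 4.04, 10.3 and 5.01 (0.76). The 178 nuclear hormone receptors had a median of 0.05, none at 2-fold, and 66 of 1685 chemoreceptor genes were measured at all.

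Differences were also placed by position. Chromosome V held 71 of the 195 lower genes, 2.51% of its 2831 measured genes against 1.37% of all genes. Medians of the nuclear chromosomes lay between -0.02 and 0.01. In windows of 9 neighbouring measured genes with at least 5 past 2-fold in 1 direction, 2 runs were found. One was the mitochondrial genome, and the other lay on chromosome V from 2345675 to 2531173 (1-based, genome build not given). That run held 20 measured genes, 17 of them at least 2-fold lower in ia03, with a median of -1.83. Relative to wild type its medians were -1.64 in ia03 and 0.22 in ju145. Outside the run, 54 of 2811 genes of chromosome V were 2-fold lower (1.92%). On the other nuclear chromosomes the share ran from 0.59% on III to 1.64% on X.

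Several genes of the run were lower in ia03 than in both other libraries. F56A4.2 had 274 in the wild type library, 31.7 with ia03 and 272 with ju145 (-3.22), and F56A4.3 had 509.6, 162 and 443 (-1.61). mct-2, a monocarboxylate transporter-like gene, had 76.4, 22.3 and 80.3 (-1.96). irld-53 and irld-35, members of a family related to the ligand-binding domain of insulin receptors, had 10.4 and 7.48 in the wild type library, 0.362 and 0.119 with ia03 and 10.1 and 8.0 with ju145. In these 5 genes ju145 lay near wild type. Y45G12C.16 and C13B7.6 differed from them in that ju145 also lay below wild type, at 87.1, 22.6 and 45.9 and at 108, 34.4 and 62.3. Of the 20 genes, 6 share all 3 values with another gene of the run, for example C01B4.7 and Y19D10A.4 at 13.3, 3.14 and 14.7, so these are not separate measurements. Further genes of the run match in size. irld-53 and irld-35 each span 2111 nt with 1206 nt of exon, and Y45G12C.16 and C13B7.6 span 1029 nt with 582 nt. Y19D10A.11 and F56A4.12 span 4759 nt with 1398 nt, and clec-209 and F56A4.2 have 891 nt of exon. Whether these pairs share reads was not tested, so the 20 genes may hold fewer separate measurements.

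Neighbours were also examined away from the runs. Of 14209 neighbouring pairs that touch no run, both members were at least 2-fold apart in the same direction in 11, and 10 of these were lower in ia03. They included col-126 with col-127, col-95 with col-96, the fbxa-191 to fbxa-193 genes, and Y102A5C.36 with Y102A5C.5 and Y102A5C.6 on chromosome V. The 11 pairs are not 11 separate places, since fbxa-192 and Y102A5C.5 each belong to more than 1 pair. In 1 pair, the snoRNAs F54E7.10 and F54E7.11, the loci overlap. Among all 288 genes past 2-fold, 195 were lower in ia03. Y102A5C.36 had 38.1 in the wild type library, 7.92 with ia03 and 29 with ju145 (-1.91), and the pseudogene Y102A5C.5 beside it had 65.5, 14.7 and 51.5 (-1.90). Both were low in ia03 alone. On chromosome X the neighbours T08D2.4 and T08D2.6 had ratios of -1.64 and -1.18.

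Part of the 288 genes were short RNAs or values of 0. Of 303 genes with less than 300 nt of exon in the reference, 22 exceeded 2-fold upward in ia03 and 59 downward, where 0.653% and 1.37% of all genes did. Their loci in the files span at least 300 nt all the same. Of 123 genes annotated as ncRNA, 10 were higher and 26 lower, against the same shares of all genes. In 1 of the mutants 68 genes were listed at 0, of which 44 were at 0 in ia03 and 24 in ju145. With the floor of FPKM 1 and the 1 added to each value, such a gene is at least 2-fold apart before centring by construction. After centring, 65 of the 68 counted among the 288, which is therefore no finding about these genes. The snoRNA K07C5.12 was listed at 0 in ia03 against 239.8 in ju145 and 192 in wild type, and the snoRNA JC8.15 at 0 in ju145 against 29 in ia03 and 115.2 in wild type. K10D3.8, a protein-coding gene, was listed at 0 in ju145 against 15.4 in ia03 and 12 in wild type. No fold is given against a value of 0. Among genes with an FPKM of at least 20 in a mutant, 24 of 6314 were higher and 63 lower. Both are smaller shares than the 0.653% and 1.37% of all genes.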

How the data were processed

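Per the labels' protocols, TRIzol extraction and a DNase step preceded mRNA library preparation with an Illumina kit. The submitters' processing notes name TopHat (1.3.1), Bowtie2 (2.0.2), Cufflinks (1.3.0), Cuffdiff, SAMtools (0.1.16) and FastQC without saying what each did. Genome build and annotation: not given in the sources used here. The authors deposited 1 table per mutant of FPKM for that mutant and wild type, with status, p-value and q-value columns, per the file headers. The wild type FPKM was identical in both tables for all 45343 features. FPKM holds no counts, so depth is unknown and no counting interval is given. Its scaling makes genes depend on the most abundant RNAs of the library, and short transcripts on a length correction.

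The tables were joined on sequence name. From 16301 features with status OK in both, a floor of FPKM 1 removed 1917 and the limit of 300 nt removed 134. The ratio was log2 of FPKM + 1, which understates differences of low genes, and was centred on its median. Of the 14250 genes, 3194 overlap another expressed feature and 48 share all 3 values with another gene, so their reads are uncertain. The Ensembl release 115 annotation gave biotypes for 44063 features by sequence name, and exon lengths for 14038 of the genes compared. The files gave symbols for 24967 features, and the reference gave 2563 more by sequence name. Deposited starts appear to count from 0, so 1 was added to them.

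The members, the 44 gene lists and the tests were chosen with earlier results of these data known. Genes were named by a rule that took ahr-1, the 15 highest and 15 lowest ratios above 0 in both mutants with an FPKM of at least 5 in 1 of them, 5 per direction listed at 0 in 1 mutant, the 4 most extreme genes of each list or fewer, the genes of any run, and up to 5 per direction and class of wild type position. The gene pairs outside the runs, col-119, bli-1 and the genes nearest to the limit were added after their values were seen. With 1 library a strain no test was made. Alternatives were pseudocounts of 0.1 and 5, other floors, spans, statuses, size limits, windows and scalings, and, chosen after the data were seen, coding genes and pseudogenes alone, exons of at least 1000 nt and centring by length class. Scripts were tested on simulated data. Python 3.11.15, numpy 2.4.6, pandas 2.3.3 and matplotlib 3.10.9 were used.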

Additional observations from a re-analysis of the deposited data

Results flagged for a closer look

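F09B12.7 was the 1 gene past 2-fold in opposite directions from wild type, with log2 ratios of -1.76 for ia03 and 1.05 for ju145, and its ratio between the alleles was -2.80. Its FPKM was 17.7 in the wild type library, 4.47 with ia03 and 33.1 with ju145. The gene has 390 nt of exon, and the authors' deposited q-value against wild type was 0.718 in ia03 and 0.778 in ju145.

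The mitochondrially encoded genes had a median of 0.17 in ia03 and -1.27 in ju145 relative to wild type, and a median ratio between the alleles of 1.27. The antimicrobial peptide genes lay at -0.17 for ia03 and at 0.28 for ju145 (medians), and a median ratio of -0.46 between the alleles, or -0.23 relative to genes of the same length class. The mutants lay on opposite sides of wild type for F09B12.7 and for the medians of both lists, but not for every member. In ia03, 4 of the 14 mitochondrially encoded genes lay below wild type and 16 of the 41 antimicrobial genes above it. In ju145, 14 of the 41 lay below it. The differences were not tested because each strain has 1 library.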

How the results depend on the processing

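No direction of a named gene above 2-fold or of a list median of at least 0.25 reversed under any alternative run. The counts moved with the settings, and the causes were not tested beyond what each setting does by construction. Genes at least 2-fold higher in ia03 numbered 249 with a pseudocount of 0.1, 34 with 5, 168 without centring, 50 with spans of at least 1000 nt, 158 with any status, 59 at loci that overlap no other feature, 18 with exons of at least 1000 nt, 484 at 1.5-fold and 21 at 4-fold, against 93. Genes at least 2-fold lower numbered 318, 73, 117 and 34 with pseudocounts of 0.1 and 5, the longer spans and the longer exons, 119 with a floor of FPKM 5, 742 at 1.5-fold and 45 at 4-fold, against 195. Genes standing apart from wild type in ia03 alone numbered 249, 46, 70, 24, 591 and 31 with pseudocounts of 0.1 and 5, longer spans, longer exons, 1.5-fold and 4-fold, against 124. In ju145 alone they numbered 104, 18, 27, 5, 188 and 16 under the same settings, 34 with the floor of FPKM 5, 106 with any status and 34 at loci that overlap no other feature, against 56. The runs numbered 1 with longer spans, longer exons, windows of 15 or loci that overlap no other feature, 4 at 1.5-fold and 0 at 4-fold, against 2. Lists with a median of at least 0.25 in size numbered 7 with a pseudocount of 5 and 6 with centring by length class, against 11. No paired analysis was possible because each strain has 1 library. The single library a strain also limits every value: strain, culture and library cannot be told apart.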
